A study of Mus musculus with 4 samples.

Results

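Runx2 occupancy was examined at distal regions of the mouse genome that carried a Runx2 peak in proliferating cells at day 0 and in mineralizing cultures at day 28, but not at the intermediate day 9. The 1015 regions were selected on the peak calls of all 3 days and on their position. Peaks that shared at least 1 bp were merged, regions with a peak at days 0 and 28 and none at day 9 were retained, and their centres had to lie outside protein-coding exons, over 1 kb and at most 100 kb from the nearest protein-coding transcription start site (TSS). Of 67703 merged regions, 1392 (2.06%) had this day pattern. Of these, 89 were left out for a centre within 1 kb of a TSS, 277 for a centre over 100 kb away and 11 for a centre in an exon. The 1015 remaining regions made up 2.32% of the 43666 distal regions (95% interval 2.19 to 2.47%).

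The peaks come from ChIP-Seq with the Runx2 antibody M70 in MC3T3-E1 subclone 4, a clonal preosteoblast line from C57BL/6 mouse calvaria. Day 0 cells were proliferating, and cells at day 9 (matrix deposition) and day 28 (mineralization) had been kept in medium with ascorbic acid and beta-glycerophosphate, which drives osteoblast differentiation. At each day 2 biological replicates were pooled before peaks were called against input DNA of day 9 cells, so each day has a single list. The day 0 list held 25457 peaks, the day 9 list 60596 and the day 28 list 40330. The paper lists more raw reads for day 0 than for day 9, and the fewest for day 28. What this difference in depth contributes to the day pattern was not tested. The lists themselves hold no read counts, which leaves the reads behind a single peak unknown. They also give no value for a region that missed the deposited threshold (1e-10). A region without a day 9 peak is therefore one without a listed peak, not one shown to lack Runx2.

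Runx2 is the Runt-domain transcription factor on which osteoblast formation depends. It binds DNA together with Cbfb at the core motif TGTGGT, and much of its binding lies far from promoters, at enhancers that it shares with other factors. AP-1, the dimers of Fos and Jun proteins, binds TGANTCA and is a frequent partner of Runx proteins at such enhancers. Tead proteins, the DNA-binding partners of Yap and Taz, bind GGAATG.

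The sequences at the centres of 5 regions show what the motif counts rest on. They are among the 6 highest-ranked regions, by the lower of the day 0 and day 28 score percentiles, that held TGTGGT or TGANTCA within 50 bp of the centre. Each run is 200 bases of the plus strand of mm9 (NCBIM37), 5′ to 3′, named by the gene with the nearest TSS. Capitals mark TGTGGT, its other strand ACCACA, and TGANTCA.
Slc39a12, chr2:14234248-14234447: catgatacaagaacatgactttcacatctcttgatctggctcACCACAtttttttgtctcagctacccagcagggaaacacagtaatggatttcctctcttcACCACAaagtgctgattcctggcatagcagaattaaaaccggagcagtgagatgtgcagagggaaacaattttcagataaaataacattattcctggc
Sntb1, chr15:55690936-55691135: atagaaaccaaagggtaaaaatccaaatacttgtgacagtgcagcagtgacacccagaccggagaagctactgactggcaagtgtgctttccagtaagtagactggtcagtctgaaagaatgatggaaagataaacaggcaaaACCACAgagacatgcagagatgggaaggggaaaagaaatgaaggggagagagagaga
Kcnj16, chr11:110742387-110742586: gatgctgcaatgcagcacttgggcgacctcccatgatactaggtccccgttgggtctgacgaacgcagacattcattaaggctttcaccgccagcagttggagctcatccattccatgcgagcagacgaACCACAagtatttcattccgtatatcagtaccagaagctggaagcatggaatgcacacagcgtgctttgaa
Ptpra, chr2:130314414-130314613: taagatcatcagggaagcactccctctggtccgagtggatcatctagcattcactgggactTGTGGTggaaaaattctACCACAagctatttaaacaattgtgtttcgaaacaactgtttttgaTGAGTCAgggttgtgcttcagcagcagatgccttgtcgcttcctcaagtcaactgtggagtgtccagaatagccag
Rnd3, chr2:51075359-51075558: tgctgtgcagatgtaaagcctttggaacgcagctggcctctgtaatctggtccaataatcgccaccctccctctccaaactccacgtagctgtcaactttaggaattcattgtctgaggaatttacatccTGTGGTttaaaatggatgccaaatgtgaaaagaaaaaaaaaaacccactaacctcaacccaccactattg

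The Slc39a12 region held 2 copies of the Runx core in these 200 bases, both read on the minus strand. The Ptpra region held 1 copy on either strand and was the only one of the 5 with an AP-1 match. It was also 1 of 26 regions (2.56%, 1.68 to 3.73%) with both motifs within 50 bp of the centre, whereas 1 of 2030 flanking windows of the same length held both. In the other day patterns the share of distal regions with both ran from 0.762% (day 9 alone) to 3.18% (days 0 and 9). It was 1.88% for day 0 alone and 1.64% for all 3 days. The 2 motif centres lay 46.5 bp apart in the Ptpra region. They lay closest, at 7.5 bp, in regions nearest to Capza2, Btc and Eid1.

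The peaks that defined the regions were mostly weak. The MACS score, which is -log10 of the p-value multiplied by 10, had a median of 199 at day 0 (middle 50% of regions, 136 to 320) and of 165 at day 28 (126 to 235). Since scores depend on depth, each was also ranked within its own list. The median percentile in the day 0 list was 35.8 (33.9 to 38.7), against 24.6 (23.4 to 26.3) in the day 28 list. In 655 regions (64.5%) the day 0 percentile was the higher. Both percentiles were below 50 in 633 regions (62.4%), both were at or above 50 in 57 (5.62%), and 0 regions reached the tied top score of 3100. These values chose the regions and are given as a description. For orientation, distal regions with peaks at all 3 days had median percentiles of 58.2 at day 0 and 62.7 at day 28, and those with a peak at day 0 alone or day 28 alone had 22.8 and 17.1.

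**Figure D1:**
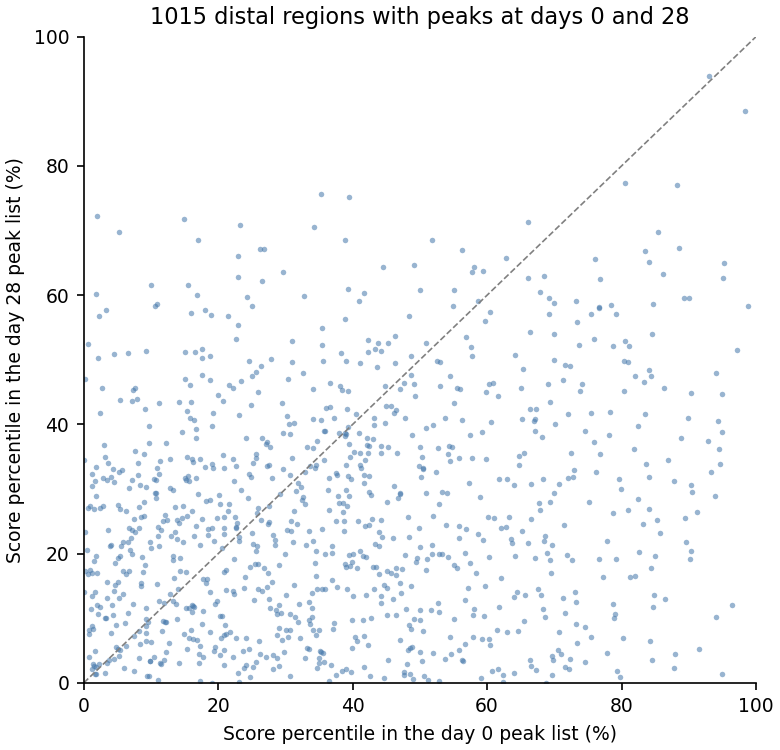
Score percentile of each of the 1015 regions in the day 0 list (x axis, %) and in the day 28 list (y axis, %), 1 point per region; the dashed line marks equal percentiles. More points (655) lie below the line than above it, and 57 points have both percentiles at or above 50.

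The overlap of the day 0 and day 28 peaks, which the rule required, is described by its extent. In 1008 regions there was 1 peak of each day, the median stretch shared by both was 572 bp of a median region width of 837 bp, and the peak centres lay a median of 59 bp apart. In 1008 regions the shared stretch was at least 50% of the shorter peak. The fewest shared bases were 6 bp, in a region nearest to Zfp608. The nearest day 9 peak lay a median of 7268 bp away. It was closer than 500 bp in 68 regions and closer than 1 kb in 124, the nearest being 13 bp from a region near Zfhx3 and 16 bp from a region near Slc1a3. Just outside the rule, a region near Cdk8 had a day 9 peak that shared only 61 bp with its other peaks. By distance, the regions just inside lay 1034 bp (BC106179) and 99965 bp (4921513I03Rik) from a TSS, and those just outside 966 bp (Rgs17) and 100640 bp (Gm8226). The lowest scores inside were 100.02, at a day 0 peak near Tmem200a and a day 28 peak near Mchr1, beside the deposited minimum of 100.

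The running numbers of the day 9 list were read as well. MACS numbers its peaks along the chromosomes, and the deposited lists keep those numbers with gaps. The highest number in the day 9 list was 117897, of which 57301 (48.6%) were missing; 35.5% were missing from the day 0 list and 36.8% from the day 28 list. Why each number is missing is not stated in the sources used here, although the authors left out peaks that MACS gave a p-value above 1e-10. For 1014 of the 1015 regions the stretch between the flanking day 9 peaks could be read. In 908 of them (89.5%, 87.5 to 91.4%) at least 1 day 9 number was missing from that stretch, whose median length was 40.6 kb.

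Longer stretches had more missing numbers, so stretches were compared within classes of length. Of stretches of 5 to 10 kb, 79.0% (66.8 to 88.3%, n = 62) of those holding a single region of days 0 and 28 had a missing number, against 42.2% (41.1 to 43.3%, n = 8056) of those with no day 0 or day 28 region, with mean lengths of 7.64 and 7.27 kb. The share was 63.5% (56.0 to 70.6%) where the stretch held a single distal region of day 0 alone and 73.3% (68.1 to 78.1%) for day 28 alone. At 10 to 20 kb the shares were 85.3% (77.3 to 91.4%) with a region of days 0 and 28 and 52.4% (51.3 to 53.5%) without any. They were 69.4% (63.6 to 74.7%) for day 0 alone and 80.4% (76.7 to 83.8%) for day 28 alone. At 20 to 40 kb the share was 83.2% for days 0 and 28, 84.4% for day 28 alone, 74.9% for day 0 alone and 60.4% without any. Under 5 kb it was 80.4% for days 0 and 28 and 18.4% without any. There the lengths were not alike, with means of 3.48 and 1.74 kb. The position of a missing peak within its stretch is not known. The 106 regions with no number missing are those for which the list leaves no room for a weaker numbered day 9 peak.

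**Figure D2:**
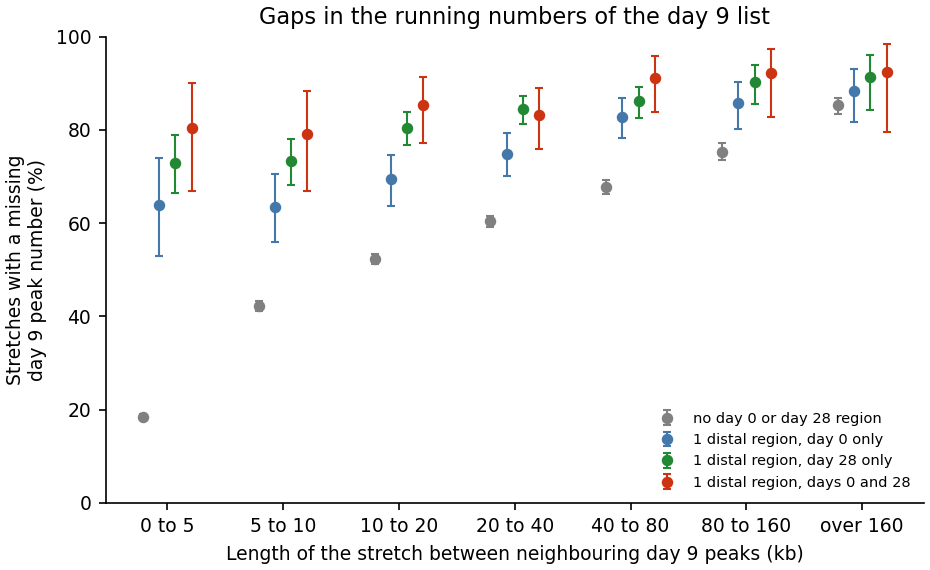
Share of stretches between neighbouring day 9 peaks from which at least 1 running peak number is missing (y axis, %), by length of the stretch (x axis, kb), with exact 95% intervals. At 10 to 20 kb the stretches with a region of days 0 and 28 stand at 85.3% and those with no day 0 or day 28 region at 52.4%. Those with a region of day 28 alone stand at 80.4%.

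By position, the regions divided almost evenly between gene bodies and the space between genes. Between protein-coding genes lay 533 (52.5%), in an intron of the gene with the nearest TSS 401 (39.5%), and in an intron of another gene 81 (7.98%). The intron share of 47.5% differed by -8.63 percentage points from that of distal regions bound at days 9 and 28 (95% interval -11.8 to -5.40) and by -8.41 points from that of regions of day 9 alone (-11.6 to -5.25). From regions of day 28 alone it differed by -4.51 points (-7.96 to -1.04). The intervals against day 0 alone (0.765 points, -2.82 to 4.36), days 0 and 9 (-3.31, -7.80 to 1.20) and all 3 days (-1.49, -4.73 to 1.76) included 0. The median distance to the TSS was 22184 bp (20381 to 23987), and 463 regions (45.6%) lay upstream of it. The centres of the regions were less rich in G and C, with a mean of 47.8% (47.4 to 48.3%), than the centres of regions bound at all 3 days (52.7%) or at days 9 and 28 (52.9%), and stood beside 47.4% for day 0 alone. Intervals of all shares cover counting error only.

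The Runx core motif was found at the centres more often than in the flanks, but less often than at regions with a day 9 peak and no day 0 peak. TGTGGT lay within 50 bp of the centre, on either strand, in 214 regions (21.1%, 18.6 to 23.7%), against 7.68% of windows of equal length 450 to 550 bp away. Distal regions of day 9 alone held it in 33.3%, and those of days 9 and 28 in 29.4%. The difference from the latter was -8.35 points (-10.9 to -5.59). Against regions of day 0 alone (19.3%), day 28 alone (23.2%), days 0 and 9 (23.8%) and all 3 days (21.8%) the differences ran from -2.67 to 1.83 points, each with an interval that included 0. Over all 43666 distal regions 28.0% held TGTGGT, and over all 67703 merged regions 24.2%.

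The AP-1 motif was more frequent at these regions than in 4 of the 6 other day patterns. TGANTCA lay at the centre of 109 regions (10.7%, 8.90 to 12.8%), against 2.36% of the flanks, 4.20% of all merged regions and 4.91% of all distal regions. The share was 2.69% in regions of day 9 alone, 4.05% for days 9 and 28, 5.32% for day 28 alone and 6.88% for all 3 days. The difference was 6.69 points from days 9 and 28 (4.88 to 8.77) and 3.86 points from all 3 days (2.01 to 5.98). With the other patterns that have a day 0 peak but not all 3 days, the difference was -0.270 points for day 0 alone (-2.42 to 2.07) and -0.966 points for days 0 and 9 (-3.85 to 1.87).

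The Tead motif GGAATG was found in 114 centres (11.2%, 9.35 to 13.3%) and 5.86% of flanks. Regions of day 9 alone held it in 4.36% and regions of days 9 and 28 in 6.90%, a difference of 4.33 points from the latter (2.46 to 6.48). The share was 8.42% for day 28 alone, 8.97% for all 3 days, 9.77% for days 0 and 9 and 11.8% for day 0 alone. The difference was 1.46 points from days 0 and 9 (-1.34 to 4.21) and -0.551 points from day 0 alone (-2.75 to 1.84). The C/EBP motif TTGCNNAA was found in 6.21% of centres and 4.53% of flanks, beside 6.30% of centres of day 0 alone. Its difference from the flanks, 1.67 points, had an interval just above 0 (0.0180 to 3.52), not widened for the number of motifs. The Ctcf core was found in 1.28% of centres (13 regions) and 0.0493% of flanks (1 window). In the other day patterns its centre share ran from 0.515% (day 0 alone) to 2.39% (days 0 and 9), each above its flanks. These were the 3 motifs, besides TGTGGT and TGANTCA, whose centre share exceeded the flank share with an interval above 0. The E-box CAGCTG, bound by bHLH factors such as MyoD, was less frequent here than in every other day pattern except day 0 alone. It lay in 5.52% of centres and 4.98% of flanks, but in 13.4% of centres of day 28 alone and 11.8% of those of days 9 and 28, differences of -7.90 points (-9.59 to -6.00) and -6.31 points (-7.72 to -4.62). The E-box share was 9.90% for all 3 days, 8.86% for days 0 and 9 and 7.43% for day 9 alone. The differences were -4.38 points (-5.79 to -2.68), -3.35 points (-5.75 to -1.02) and -1.92 points (-3.22 to -0.290). The last 2 intervals included 0 once widened for all comparisons. For day 0 alone the E-box share was 5.96%, with an interval of the difference that included 0. The homeodomain motif TAATTA was rarer at the centres (1.28%) than in the flanks (4.48%).

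**Figure D3:**
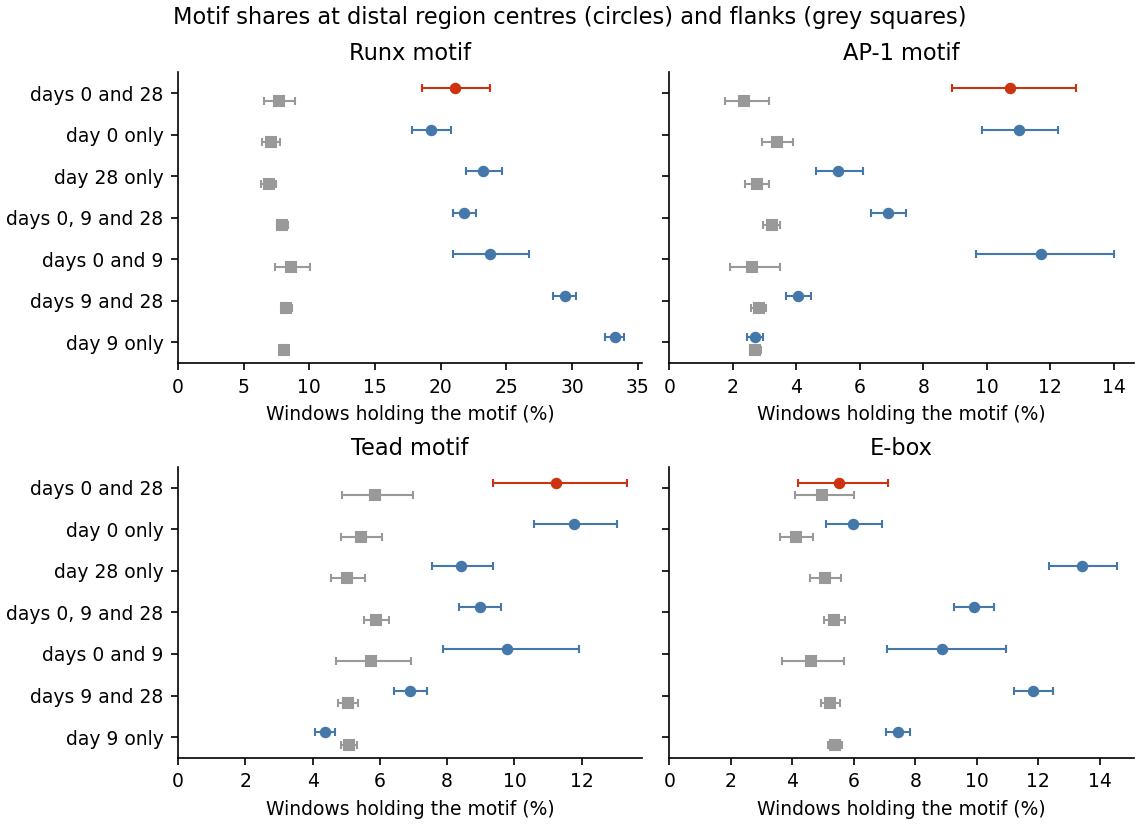
Share of windows with each motif (x axis, %) at the centres (circles) and in the flanks (grey squares) of distal regions, by the days at which they had a peak; bars are exact 95% intervals. For AP-1 the regions of days 0 and 28 (red, 10.7%) lie beside those of day 0 alone, and for the E-box they lie at 5.52% against 13.4% for day 28 alone.

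Over 16 motifs and 6 other day patterns, 96 differences were computed. The 95% interval excluded 0 in 27, and in 15 after widening for the 96 comparisons, 10 with a higher and 5 with a lower share in the regions of days 0 and 28. Of these 15, 6 were against day 9 alone, 5 against days 9 and 28, 2 against day 28 alone, 2 against all 3 days and 0 against day 0 alone or against days 0 and 9. Against day 0 alone, 1 unadjusted interval excluded 0, that of the Ctcf core (1.28% against 0.515%). The remaining motifs searched, for Creb, Srf, Nfi, Ets, Forkhead, NF-kappaB, Mef2, Stat and the glucocorticoid receptor, had centre shares between 0 and 7.09%, each with an interval of the difference from the flanks that included 0. The TGANTCA and TGACGTCA motifs do not overlap, since the latter lacks the spacing of the former.

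These differences were also read among weak peaks and at like base composition, since both differ between the day patterns. Region width differs too, with a median of 837 bp here, 1054 bp for all 3 days, 719 bp for days 9 and 28, 586 bp for day 28 alone and 473 bp for day 9 alone. Width was not matched, and in the widest regions the flank windows lay inside the region. Among regions whose day 28 peak lay below percentile 33.3 of its list, TGANTCA was found in 11.7% of 675 regions of days 0 and 28 and 4.19% of 4532 regions of days 9 and 28, a difference of 7.51 points (5.21 to 10.2). TGTGGT was found in 21.5% and 31.9%, a difference of -10.4 points (-13.6 to -6.88). Among centres with 45 to 55% G and C, the differences were 7.15 points for TGANTCA (4.64 to 10.2) and -13.2 points for TGTGGT (-16.7 to -9.22). Against all 3 days, the TGANTCA difference was 3.06 points (0.449 to 6.18) at that composition but 2.60 points (-0.136 to 5.59) among the weak day 28 peaks. The TGTGGT difference from all 3 days was -6.47 points (-10.0 to -2.51) at that composition but -1.74 points (-5.44 to 2.15) among the weak day 28 peaks. For the E-box at that composition, the difference from day 28 alone was -6.19 points (-8.75 to -3.19), while those from days 9 and 28 (-2.56, -4.73 to 0.171) and from all 3 days (-0.782) had intervals that included 0. Among the weak day 28 peaks the E-box differences were -7.36 points from day 28 alone (-9.40 to -4.96) and -4.55 points from days 9 and 28 (-6.39 to -2.29). The 106 regions with no day 9 number missing held TGANTCA in 17.0% (10.4 to 25.5%) and TGTGGT in 20.8% (13.5 to 29.7%).

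Within the regions, the motifs were set against the scores. The median day 0 percentile was 35.8 both with and without TGANTCA, and the median day 28 percentile was 19.96 with it (14.6 to 26.8) and 25.1 without it (23.6 to 26.8). The TGANTCA share was 13.9% (10.4 to 18.1%) in the lowest and 8.85% (6.05 to 12.4%) in the highest of 3 equal groups by day 28 percentile. By day 0 percentile it was 9.76% in the lowest and 10.9% in the highest group. The TGTGGT share was 19.5% in the lowest and 21.5% in the highest of 3 equal groups by day 0 percentile, but 22.8% and 20.4% by day 28 percentile. It was 23.7% in introns (19.9 to 27.7%) and 18.8% between genes (15.5 to 22.3%).

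Without a motif list, the Runx core still came first. Of 2078 hexamers, each counted with its other strand, TGTGGT had the largest excess of centres over flanks, 13.4 points. The next were its overlapping forms GTGGTT (10.9 points) and CTGTGG (10.6 points), and the sixth was TGAGTC (6.65 points), part of the AP-1 motif; GGAATG ranked 11 with 5.37 points. Against the centres of days 9 and 28 the order was led by A-rich words, first AAACAA (13.8% against 7.03%), which was found in 13.3% of the flanks of the same regions.

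**Figure D4:**
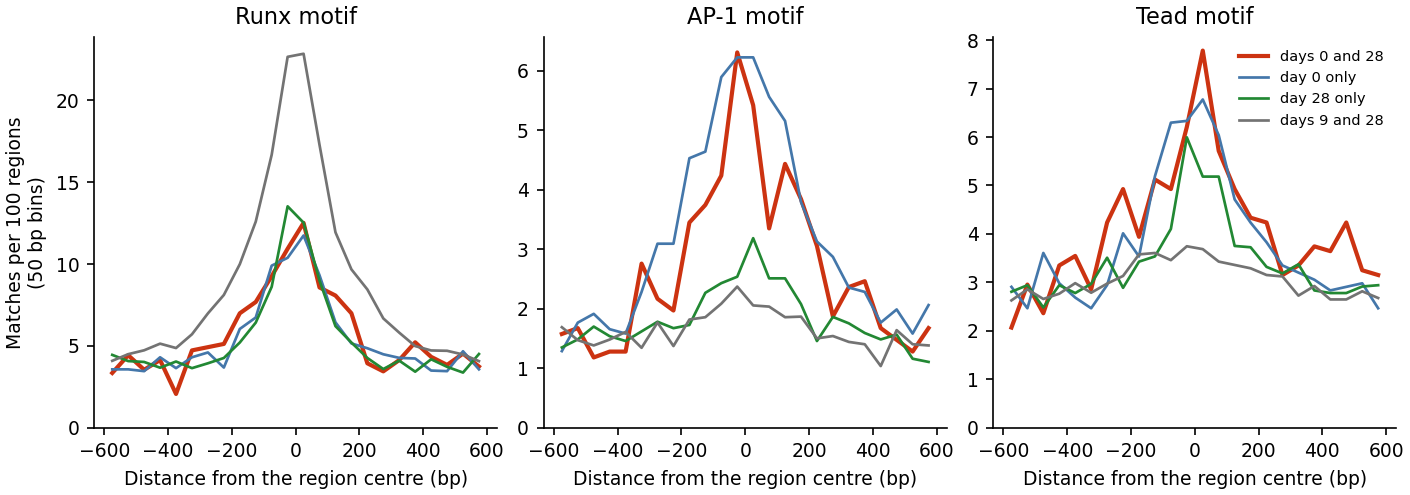
Matches per 100 regions in bins of 50 bp (y axis) by distance from the region centre (x axis, bp) for the Runx, AP-1 and Tead motifs. The regions of days 0 and 28 (red) reach 12.5 Runx matches and 6.31 AP-1 matches per 100 regions in the bins beside the centre and fall to 3.74 and 1.67 at the outer edge on the right.

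The regions were spread unevenly over the chromosomes. Chromosome 2 held 112 of them, 2.91% of its distal regions (2.40 to 3.49%), and chromosome 17 held 19, or 0.776% (0.468 to 1.21%). The share was 3.67% on chromosome 19 and 3.98% on chromosome X. The numbers of day 0 peaks per day 9 peak also varied: among the autosomes they were lowest on chromosome 17 (0.287) and highest on chromosome 19 (0.566), with 0.509 on chromosome 2 and 0.487 on chromosome 3. Chromosome X, with the highest share of these regions, had 0.465. The numbers of day 28 peaks per day 9 peak were highest on chromosome X (0.908) and lowest on chromosome 17 (0.516). They were 0.731 on chromosome 19, 0.676 on chromosome 2 and 0.751 on chromosome 3. The part of these peak numbers in the uneven spread was not tested. Without chromosome 2 the TGANTCA share was 11.1% and the TGTGGT share 22.3%.

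**Figure D5:**
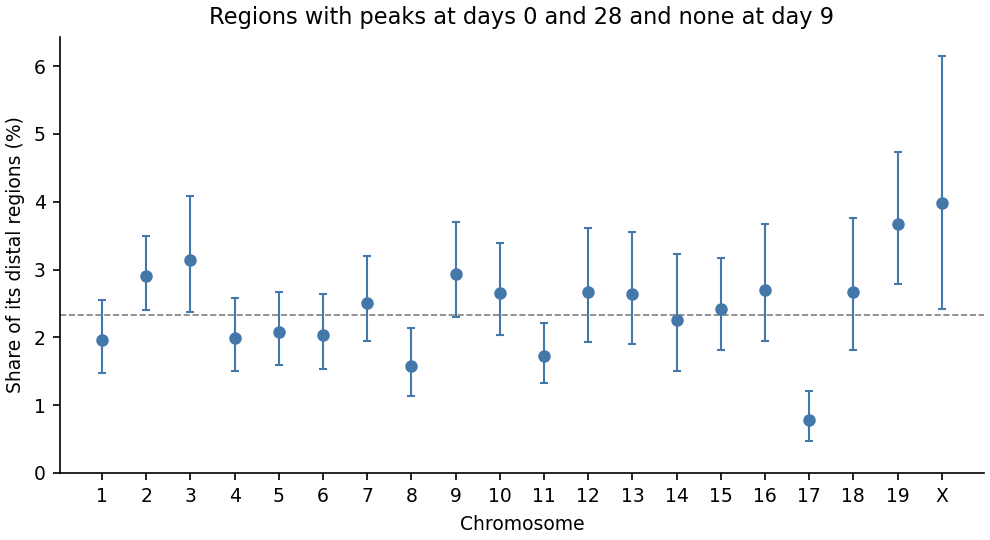
Regions of days 0 and 28 as a share of all distal regions of each chromosome (y axis, %), with exact 95% intervals; the dashed line marks the share over all chromosomes, 2.32%. Chromosome 17 stands lowest at 0.776%, and chromosome Y, with 2 distal regions and none of this kind, is not drawn.

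The highest-ranked region lay between genes on chromosome 10 (chr10:99236788-99237978), 15091 bp upstream of Csl, a citrate synthase-like gene. It scored 1168 at day 0 and 2523 at day 28 and stood at percentiles 93.1 and 93.9, with the nearest day 9 peak 14063 bp away. A second region, 28031 bp upstream of Csl, ranked 9 with scores of 545 and 583. Neither held TGTGGT or TGANTCA within 50 bp of its centre.

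The region that ranked 2 (chr2:14233873-14234823) scored 2321 at day 0 and 1715 at day 28. It lay in an intron of Mrc1, the macrophage mannose receptor gene, and its nearest TSS was that of the zinc transporter gene Slc39a12, 75595 bp away. Ranks 3 and 4 were near genes of cell adhesion and the cytoskeleton. The Tln2 region (chr9:67117742-67119114) lay in an intron of this talin gene, whose product links integrins to actin, and scored 628 at day 0 and 964 at day 28. The Fhl2 region (chr1:43293489-43295063) lay 73470 bp upstream of the gene of this LIM-domain cofactor and scored 873 and 955. The percentiles were 80.5 and 77.3 for Tln2, and 88.3 and 77.1 for Fhl2.

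Some further regions in the first 20 were nearest to genes of the matrix or of signalling at the cell surface. The Plod2 region (chr9:92511966-92512790), 75276 bp downstream of the start of this collagen lysyl hydroxylase gene, scored 559 and 519 and had its nearest day 9 peak 67004 bp away. The Sulf2 region, 25130 bp upstream of this heparan sulfate sulfatase gene, scored 790 and 535, and 21 of the 22 distal regions nearest to Sulf2 had a day 9 peak. The Gfra1 region, in an intron of this GDNF receptor gene, scored 885 and 621. Other regions were nearest to Ctsb (cathepsin B), Rin2 (a Ras and Rab interactor), Ptpra (a receptor tyrosine phosphatase) and Sntb1 (a syntrophin of the dystrophin complex).

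The remaining genes of the 20 had varied roles. They included Kcnj16 (a potassium channel), Lrrc4c (a netrin-G ligand), Tas2r134 (a bitter taste receptor), Ccdc53 (a WASH complex subunit), Slc1a3 (a glutamate transporter), Gm17697 and 2810474O19Rik. The Kcnj16 region had a day 0 score of 1430 and a day 28 score of 571. Of the 20, 7 lay in introns, 6 on chromosome 2, and 5 held TGTGGT at the centre; 7 had a day 9 peak closer than 5 kb.

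The regions were nearest to 903 protein-coding genes, 4.04% of the 22359 annotated. Of these, 805 were nearest to 1 region, 87 to 2, 8 to 3, and 3 genes to 4. The 3 were Tmem2, a hyaluronidase of the cell surface, Slc1a3 and Adamtsl3, an ADAMTS-like matrix protein. Around Tmem2, 4 of 12 distal regions had this pattern, at 8433 bp upstream and 2221, 36406 and 39968 bp downstream of the TSS, with day 0 scores of 346, 354, 352 and 211 and day 28 scores of 406, 248, 428 and 103. The other 8 comprised 2 of all 3 days, 3 of days 9 and 28 and 3 of day 28 alone, so 5 of 12 had a day 9 peak. Around Slc1a3 it was 4 of 16 regions, and around Adamtsl3 4 of 25, of which 19 had a day 9 peak. The strongest of the latter, in an Adamtsl3 intron, scored 1388 at day 0 and 282 at day 28 and held TGANTCA.

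Nearest genes were read against 11 lists of pathways and gene classes, chosen with earlier results of these data known. Of 401 listed genes 57 (14.2%) were nearest to a region, against 4.04% of all genes. Most listed genes lay nearest to some distal Runx2 region, however: among the 355 that did, the share was 16.1%, against 7.66% of all 11783 such genes. Genes also differ in how many distal regions lie nearest to them, for example 22 for Sulf2 and 1 for Ptpra. A gene with more of them has more occasions to be counted, and the shares were not adjusted for this. The lists with the highest shares were collagens and matrix proteins (11 of 41 genes) and integrins and focal adhesions (9 of 36), followed by Yap, Taz and Tead genes and their targets (6 of 25). The lowest were the early response and AP-1 genes (1 of 30) and cell cycle genes (2 of 36).

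Among matrix genes, the best-ranked after Plod2 were Tnc (tenascin C), Col4a2 and Col11a1. The Tnc region, 61830 bp downstream of the TSS and 57198 bp from the nearest day 9 peak, scored 213 at day 0 and 329 at day 28 and held TGANTCA. Among adhesion genes, Tln2 was followed by Tns3 (a tensin), Itgb6 (an integrin chain) and Bcar1 (a focal adhesion adaptor), with day 0 scores of 199, 216 and 162 and day 28 scores of 238, 195 and 284.

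In the actin list 7 of 50 genes were nearest to a region, led by Rnd3, a small GTPase that opposes stress fibres. Its best region, 70828 bp upstream, scored 917 at day 0 and 463 at day 28 and ranked 21; it is the last of the sequences printed above, and 3 regions in all were nearest to Rnd3. Tpm1 (tropomyosin), Capzb (a capping protein) and Cnn3 (a calponin) followed with day 0 scores of 228, 274 and 161. Of the Yap and Tead list, the Lats2 region, 2224 bp upstream of this kinase gene, scored 508 and 357 and held TGTGGT. Amotl2, Vgll3 and Vgll4 followed at ranks 157, 263 and 437.

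Osteoblast genes were nearest to a region in 5 of 35 cases. They were Dlx6 (a homeodomain factor), Omd (osteomodulin), Twist2, Phex and Spp1 (osteopontin), the last of which is named here after its values were seen. All were weak: the highest score was 332, at day 0 in Omd, and day 28 scores ran from 107 at Spp1 to 165 at Dlx6. The Spp1 region lay 2123 bp upstream of the TSS and 1476 bp from a day 9 peak.

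TGF-beta and BMP genes counted 5 of 41: Smad3, Tgfb2, Bmp6, Ltbp1 and Smad7, the last named after its values were seen. The Bmp6 region scored 495 and 203, and the Ltbp1 region 175 and 540. Wnt pathway genes counted 5 of 39: Nkd2, Sfrp2, Dkk3, Wnt16 and Tcf7l2, the last likewise named. The Sfrp2 region, 25895 bp upstream of this secreted Wnt antagonist gene, scored 520 and 238 and held both TGTGGT and TGANTCA, 9.5 bp apart. Growth factor ligands and receptors counted 3 of 40 (Lpar1, Epha2 and Fgf7), and the Fgf7 region scored 852 at day 0 but 104 at day 28. Adipocyte and myogenic genes counted 3 of 29 (Mef2a and Ppargc1a among them) and cell cycle genes 2 (Cdkn1a and Ccnd2). The early response gene was Jun, whose region, 46207 bp upstream, scored 250 and 122 and held TGANTCA.

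The regions lay among other Runx2 sites. The nearest other merged region was a median of 4038 bp away. For 311 (30.6%) it was a region of all 3 days, a pattern that makes up 27.4% of all merged regions. For 218 (21.5%) it was one of day 9 alone and for 175 (17.2%) one of days 9 and 28, patterns that make up 34.5% and 21.1%. For 120 (11.8%) it was one of day 28 alone and for 119 (11.7%) one of day 0 alone, which make up 7.59% and 5.60%. For 53 (5.22%) it was another region of days 0 and 28, against 2.06% of all merged regions. These neighbours were identified by the same peak calls and are given as a description.

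Widening the gene rule from the nearest TSS to every TSS within 100 kb gave 2587 genes, 11.6% of all. On that count the collagens and matrix list stood at 15 of 41, the integrins and focal adhesions at 13 of 36, and osteoblast genes at 11 of 35.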

How the data were processed

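Runx2 ChIP-Seq was deposited as 1 peak list per day (0, 9 and 28). Per the labels, the authors processed 36-base reads with CASAVA (version 1.6), Bowtie (version 0.12.8) on mm9 and MACS (version 1.4.1). Replicates were pooled, and peaks with p at most 1e-10 against day 9 input were kept. The deposited score is the authors' 10 times negative log10 of the p-value, used here to rank peaks within a list; peak starts and ends were taken as the authors deposited them, and the running numbers from the peak names. Input and reads were not analysed here.

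Merged regions were placed by centre with 51710 protein-coding transcripts of GENCODE M1, and 16 motifs were searched on both strands of NCBIM37 within 50 bp of the centre and in flanks 450 to 550 bp away. Shares carry exact binomial (Clopper-Pearson) 95% intervals, differences Newcombe intervals, and medians distribution-free intervals. No test between days was made, since each has 1 list. Widened intervals used a level of 99.95% over 96 comparisons.

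The regions, motifs and gene lists were chosen with earlier results of these data known. Genes named are those nearest to the 20 highest-ranked regions or to at least 4 regions, and up to 4 per list; in lists with 5 such genes the fifth was also named, after its values were seen. One of these genes and its sequence are not reported here. All listed symbols but 1 matched the annotation. Rankings of hexamers, missing numbers, the subsets by base composition and low score, and the count without chromosome 2 were added after seeing the data. Procedures were tested on simulated data. Python 3.11.15 was used with SciPy 1.17.1 for intervals, NumPy 2.4.6 for arrays and Matplotlib 3.10.9 for plots.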

Additional observations from a re-analysis of the deposited data

How the results depend on the processing

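The number of regions moved with the lists' thresholds and with the room required at day 9. It was 1015 as reported, 554 at a p-value limit of 1e-20 and 220 at 1e-50 in all lists, 213 with 1e-20 at days 0 and 28 and 1e-10 at day 9, 1563 with equally many top-scoring peaks per list, 593 with no day 9 peak within 5 kb, and 106 where no day 9 number was missing; it stayed between 756 and 1195 under the other settings. As a share of distal regions it was 2.32% as deposited, 2.28% at 1e-20, 1.99% at 1e-50 and 7.10% at equal list length. Ranked among distal peaks only, the median percentiles were 41.9 at day 0 and 30.8 at day 28. A window of 100 bp on each side raised the TGTGGT share to 34.2%, the TGANTCA share to 17.3% and the number of other motifs above their flanks from 3 to 6. Centring on the shared stretch gave 24.4% for TGTGGT. The TGANTCA share was 17.0% where no day 9 number was missing. The share of osteoblast genes was 31.4% with every TSS within 100 kb. Neither the TGTGGT nor the TGANTCA difference from days 9 and 28 changed direction. Other differences from days 9 and 28 were not put through all of these settings. Without missing day 9 numbers the interval of the TGTGGT difference was -15.4 to 0.0393 points. No paired analysis was possible because each day has 1 pooled list, and for that reason no replicate could be left out.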
